A study of Mus musculus with 9 samples.

Results

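The insulin-like growth factor binding protein (Igfbp) genes were followed through the differentiation of neural stem/progenitor cells (NSCs/NPCs) in culture. The members were all probes of the deposited non-normalized array table that the platform annotation assigned to Igfbp2, Igfbp3, Igfbp4, Igfbp5, Igfbp6 or Igfbp7. They numbered 15 of 45281 probes, for 6 genes. Of these, 10 probes for 5 genes passed the filter on dim probes, which asked for detection (p-value under 0.05) on 3 or more of the 9 arrays. The family was chosen by the levels it had in the 3 stages of these same arrays, with Igfbp2, Igfbp3 and Igfbp4 high in 1 stage and Igfbp5 in the others. The stage differences of the members are therefore given as a description, with their errors and without a test.

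Total RNA came from NSC/NPC cultures of the dentate gyrus of adult C57BL6 mice and was hybridised to Illumina MouseWG-6 v2.0 arrays, 3 for each of 3 stages. Proliferation stood for floating neurospheres in medium with growth factors. Early and late differentiation stood for cells from dissociated neurospheres that were plated on coated dishes, held in proliferation medium (for 2 days by the labels, for 2 to 3 days by the methods) and then given differentiation medium for 2 days (early) or 7 days (late). The arrays of a stage were labelled as biological replicates, and no label tied them to separate mice or cultures, so that p-values measure the spread between these arrays. Stage went together with medium and with growth as spheres or on a coated surface, and these cannot be told apart. The 3 proliferation and 3 late arrays shared 1 BeadChip and the 3 early arrays lay on another, so that comparisons with early differentiation hold both a change of stage and a change of BeadChip, which cannot be told apart. Each culture held several cell types, and fewer cells of a type and less RNA per cell cannot be told apart.

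The IGFBPs are secreted proteins that hold insulin-like growth factors (IGF1 and IGF2) in the space around cells. By binding the ligands they prolong their life and keep them from the IGF1 receptor, and proteases that cut the binding proteins set the ligands free again. In the adult hippocampus, IGF1 and IGF2 are known as growth factors for neural progenitor cells. Igfbp7 differs from the others in that its protein binds IGFs only weakly.

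The promoters of the 4 genes with the greatest stage differences are shown because Igfbp2 and Igfbp5 are direct neighbours on chromosome 1 and were high in opposite stages. Sequences are from RefSeq on build GRCm38.p6, where all 6 genes were matched, and run 5′ to 3′ on the strand of the gene from 250 bases before its annotated start to 50 bases after the start. Of the windows annotated for Igfbp2 the outermost was taken. Capitals mark every match, on either strand, to a TATA box (TATAAA), a GC box (GGGCGG), an E-box (CACGTG), an AP-1 site (TGACTCA), a FOXO site (GTAAACA), a cell cycle homology region (TTTGAA) or an AP-2 site (GCCNNNGGC). No match overlapped another.
Igfbp2, chr1:72824230-72824529, plus strand: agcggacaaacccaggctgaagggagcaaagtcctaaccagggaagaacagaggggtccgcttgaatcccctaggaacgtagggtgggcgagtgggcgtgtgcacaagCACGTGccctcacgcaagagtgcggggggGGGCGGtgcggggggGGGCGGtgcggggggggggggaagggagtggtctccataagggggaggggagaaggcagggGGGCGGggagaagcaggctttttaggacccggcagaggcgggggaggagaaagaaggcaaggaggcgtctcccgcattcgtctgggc
Igfbp5, chr1:72874816-72875115, minus strand: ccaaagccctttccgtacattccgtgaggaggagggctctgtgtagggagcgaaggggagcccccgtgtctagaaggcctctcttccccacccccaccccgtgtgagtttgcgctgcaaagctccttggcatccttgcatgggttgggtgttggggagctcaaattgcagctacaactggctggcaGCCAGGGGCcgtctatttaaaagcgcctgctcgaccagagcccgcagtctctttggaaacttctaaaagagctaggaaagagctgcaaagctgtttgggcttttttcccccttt
Igfbp3, chr11:7213874-7214173, minus strand: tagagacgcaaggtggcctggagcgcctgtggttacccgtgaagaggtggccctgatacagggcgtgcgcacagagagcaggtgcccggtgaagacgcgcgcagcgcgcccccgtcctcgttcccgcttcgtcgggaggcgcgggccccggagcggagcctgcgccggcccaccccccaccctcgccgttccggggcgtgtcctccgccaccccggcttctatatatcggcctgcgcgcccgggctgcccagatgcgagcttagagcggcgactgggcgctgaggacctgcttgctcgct
Igfbp4, chr11:99040994-99041293, plus strand: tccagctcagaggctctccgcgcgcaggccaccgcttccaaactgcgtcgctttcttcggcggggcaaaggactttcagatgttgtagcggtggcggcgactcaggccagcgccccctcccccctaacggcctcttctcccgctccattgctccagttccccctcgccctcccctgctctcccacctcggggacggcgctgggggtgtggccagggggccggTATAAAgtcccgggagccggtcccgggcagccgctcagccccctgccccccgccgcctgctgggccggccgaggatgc
The Igfbp2 window held 3 GC boxes, at -113, -98 and -37, and an E-box at -142. The Igfbp5 window held an exact match only to the AP-2 motif, at -64, and had a GC content of 56.3%, against 67.0% for Igfbp2. The window of Igfbp7, which like Igfbp5 was higher in both differentiation stages, is not shown. It held 4 GC boxes and had a GC content of 73.3%. The Igfbp4 window held a TATA box at -28. The Igfbp3 window held no exact match to the 7 motifs, with a GC content of 71.7%. Variants of a motif, such as tatatat in the Igfbp3 window and tatttaaa in the Igfbp5 window, were not counted. The lack of a match therefore does not show that a window lacks such an element. Over the 32851 promoter windows of the same length, 35.7% held a GC box, 7.15% an E-box, 13.6% a TATA box and 16.6% an AP-2 motif. The AP-1, FOXO and cell cycle motifs, present in 5.2%, 3.65% and 17.9% of all windows, were in none of the 6 members' windows. A match is a stretch of letters and is no evidence of binding.

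Igfbp2, Igfbp3 and Igfbp4 were bright in proliferating neurospheres and dim in both differentiation stages. The protein of Igfbp2 is the main IGFBP of the developing brain and cerebrospinal fluid. Its brighter probe (ILMN_2930897) read 4711, 4690 and 3914 intensity units on the proliferation arrays 1, 2 and 3. It read 251, 247 and 222 units on the early arrays, and 136, 212 and 106 units on the late arrays, where the array background was 76.4 to 84.5 units. After background correction and normalisation, its log2 intensity averaged 11.61 ± 0.18 in proliferation, 7.74 ± 0.04 in early and 6.36 ± 0.99 in late differentiation (SD, n = 3 each). No array of 1 stage overlapped another stage. Igfbp2 was 37.9-fold lower in late differentiation than in proliferation (log2 difference -5.24 ± 0.37, SE) and 14.6-fold lower in early differentiation than in proliferation (-3.87 ± 0.37). Late differentiation was 2.59-fold below early differentiation (-1.37 ± 0.37). Late array 2, at 7.42, lay well above the other 2 late arrays, at 6.20 and 5.46, and just under the lowest early array, at 7.71.

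Igfbp3 encodes the main carrier of IGFs in blood, where it forms a complex with the acid-labile subunit, and is also secreted by many cells. Its brighter probe (ILMN_1219335) read 4344, 3914 and 5500 units on the proliferation arrays, 177, 181 and 164 units on the early arrays and 127, 170 and 137 units on the late arrays. The normalised log2 intensities averaged 11.66 ± 0.23, 7.05 ± 0.06 and 6.42 ± 0.48 in proliferation, early and late differentiation (SD, n = 3 each). The gene was 37.9-fold lower in late differentiation than in proliferation (-5.25 ± 0.21, SE) and 24.4-fold lower in early differentiation (-4.61 ± 0.21). Most of its difference was thus present at day 2, and late differentiation was a further 1.55-fold lower than early differentiation (-0.64 ± 0.21). The highest late array, at 6.94, was close to the lowest early array, at 7.00.

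Igfbp4 encodes a binding protein that mostly holds IGF action back, and that is cut by the protease PAPP-A. Its brighter probe (ILMN_1258988) read 4812, 5343 and 3126 units on the proliferation arrays, 308, 263 and 275 units on the early arrays and 166, 171 and 158 units on the late arrays. The means on the log2 scale were 11.58 ± 0.41, 8.04 ± 0.12 and 6.78 ± 0.15 in proliferation, early and late differentiation (SD, n = 3 each). Again the 3 stages did not overlap. Igfbp4 was 27.8-fold lower in late differentiation than in proliferation (-4.80 ± 0.18, SE), 11.6-fold lower in early differentiation than in proliferation (-3.54 ± 0.18), and 2.39-fold lower in late than in early differentiation (-1.26 ± 0.18). Of the 3 genes it had the tightest late arrays, at 6.69 to 6.95.

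Igfbp5 ran the other way and had reached its late level by day 2. Its protein is the most conserved of the family, binds extracellular matrix and can sit there with bound IGF. The brightest of its 3 probes (ILMN_1254358) read 766, 405 and 468 units on the proliferation arrays, 7920, 5207 and 7527 units on the early arrays and 7553, 7158 and 9048 units on the late arrays. The gene was thus well above background in neurospheres too. Its log2 intensity averaged 8.44 ± 0.53, 12.99 ± 0.30 and 13.04 ± 0.20 in proliferation, early and late differentiation (SD, n = 3 each). It was 24.3-fold higher in late differentiation than in proliferation (4.60 ± 0.24, SE) and 23.3-fold higher in early differentiation than in proliferation (4.54 ± 0.24). Late and early arrays overlapped, with a difference of 0.06 ± 0.24. Proliferation array 1, at 9.05, was above the other 2, at 8.08 and 8.19, and all 3 were far below the lowest differentiation array, at 12.65.

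Igfbp7, whose protein is found in basement membranes and blood vessels, was also higher in both differentiation stages, by a smaller factor. Its single probe above background (ILMN_2764588) read 398, 294 and 304 units on the proliferation arrays, 1200, 733 and 645 units on the early arrays and 1212, 911 and 462 units on the late arrays. The log2 intensity averaged 7.64 ± 0.29, 9.87 ± 0.40 and 9.63 ± 0.76 in proliferation, early and late differentiation (SD, n = 3 each). It was 3.96-fold higher in late differentiation than in proliferation (1.99 ± 0.33, SE) and 4.67-fold higher in early differentiation than in proliferation (2.22 ± 0.33). The late arrays ranged from 8.77 to 10.21 and overlapped the early arrays, at 9.59 to 10.33 (late minus early -0.24 ± 0.33). The remaining 4 probes annotated to Igfbp7 were not above background on any array, so that its values rest on 1 probe. The 1 probe for Igfbp6, whose protein prefers IGF2, was not above background on any array either, and no fold is given for it.

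**Figure D1:**
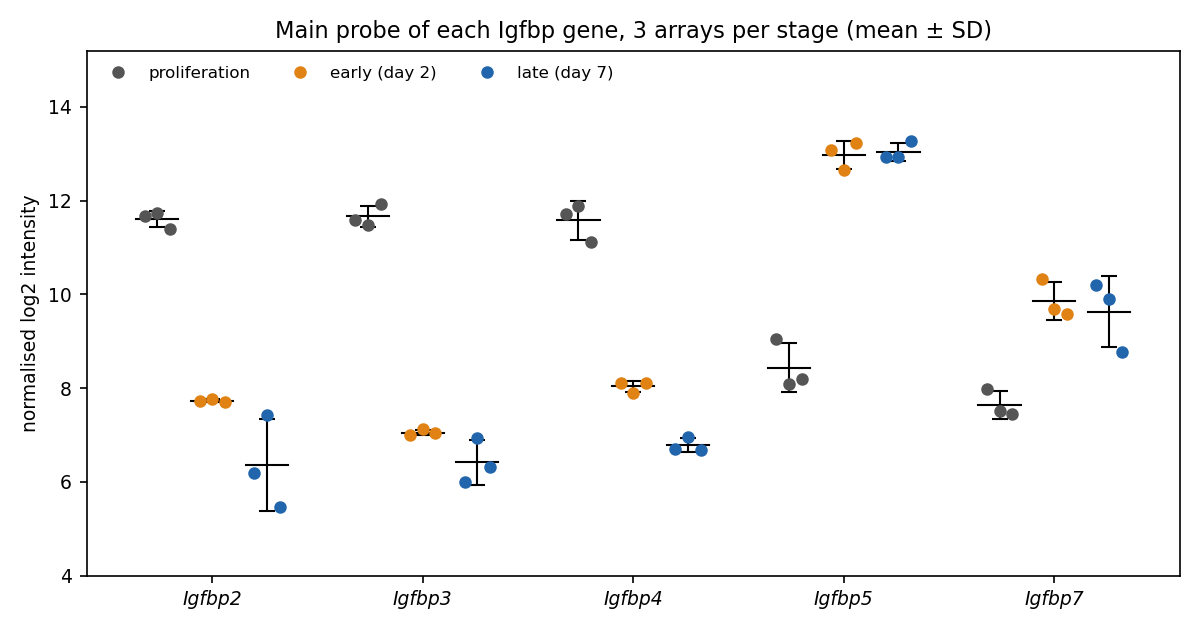
Normalised log2 intensity of the main probe of 5 Igfbp genes (vertical axis) on the 3 arrays of proliferation, early and late differentiation (points), with the mean and SD of each stage (bars). Igfbp2, Igfbp3 and Igfbp4 averaged 11.61, 11.66 and 11.58 in proliferation and at most 8.11 on any differentiation array, whereas Igfbp5 lay between 12.65 and 13.27 there.

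In late differentiation against proliferation, 2 of the 5 measured members were at least 1.5-fold higher and 3 at least 1.5-fold lower. Of all 11009 genes, 17.8% were at least 1.5-fold higher and 16.5% at least 1.5-fold lower in that comparison. A difference over 16-fold was found for 4 members and for 0.454% of all genes. Igfbp3 and Igfbp2 held places 2 and 3 from the lowest of the 11009 differences and Igfbp4 place 8, while Igfbp5 held place 8 and Igfbp7 place 252 from the highest. In early differentiation against proliferation the split was again 2 higher and 3 lower, with 17.1% and 15.4% of all genes beyond 1.5-fold in each direction. There 2 members, Igfbp3 and Igfbp5, differed by over 16-fold, as did 0.254% of all genes. Igfbp3, Igfbp2 and Igfbp4 held places 6, 19 and 33 from the lowest. Igfbp5 was again at place 8 and Igfbp7 at place 160 from the highest. Between late and early differentiation, 3 members were at least 1.5-fold lower, as were 3.56% of all genes, and none was at least 1.5-fold higher. Igfbp2, Igfbp4 and Igfbp3 were at places 27, 38 and 332 from the lowest. Since these levels chose the family, the places describe it and support nothing further. The comparisons with proliferation share its 3 arrays, and both comparisons that involve early differentiation share the early arrays.

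Probes of the same gene gave similar differences. The second probes of Igfbp2, Igfbp3 and Igfbp4 differed by -5.10, -4.91 and -4.99 between late differentiation and proliferation, and by -3.96, -4.50 and -3.51 between early differentiation and proliferation. For Igfbp5 the other 2 probes gave 4.67 and 4.83 in late differentiation and 4.44 and 4.80 in early differentiation, against proliferation. The widest gap between probes of a gene was 0.34 in the late, 0.36 in the early and 0.24 in the late-against-early comparison, on the log2 scale. All 10 probes separated both differentiation stages from proliferation with no overlap of arrays. Of all genes, 61.6% did so for late differentiation and 61.3% for early differentiation. Between late and early differentiation, the 6 probes of Igfbp2, Igfbp3 and Igfbp4 did not overlap and the 4 probes of Igfbp5 and Igfbp7 did. Of all genes, 28.6% did not overlap there.

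**Figure D2:**
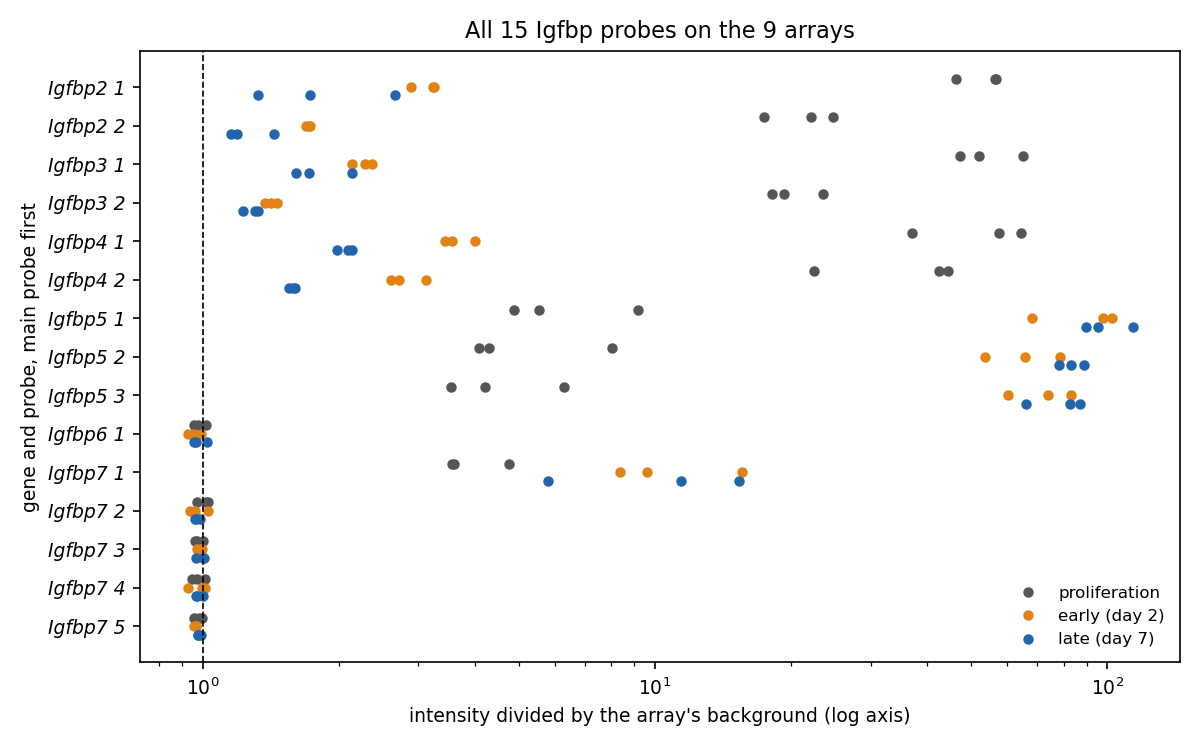
Intensity of the 15 Igfbp probes divided by the background of the array (horizontal log axis, dashed line at the background), with 3 arrays per stage. The single Igfbp6 probe and 4 of the 5 Igfbp7 probes lie at the background in every stage.

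**Figure D3:**
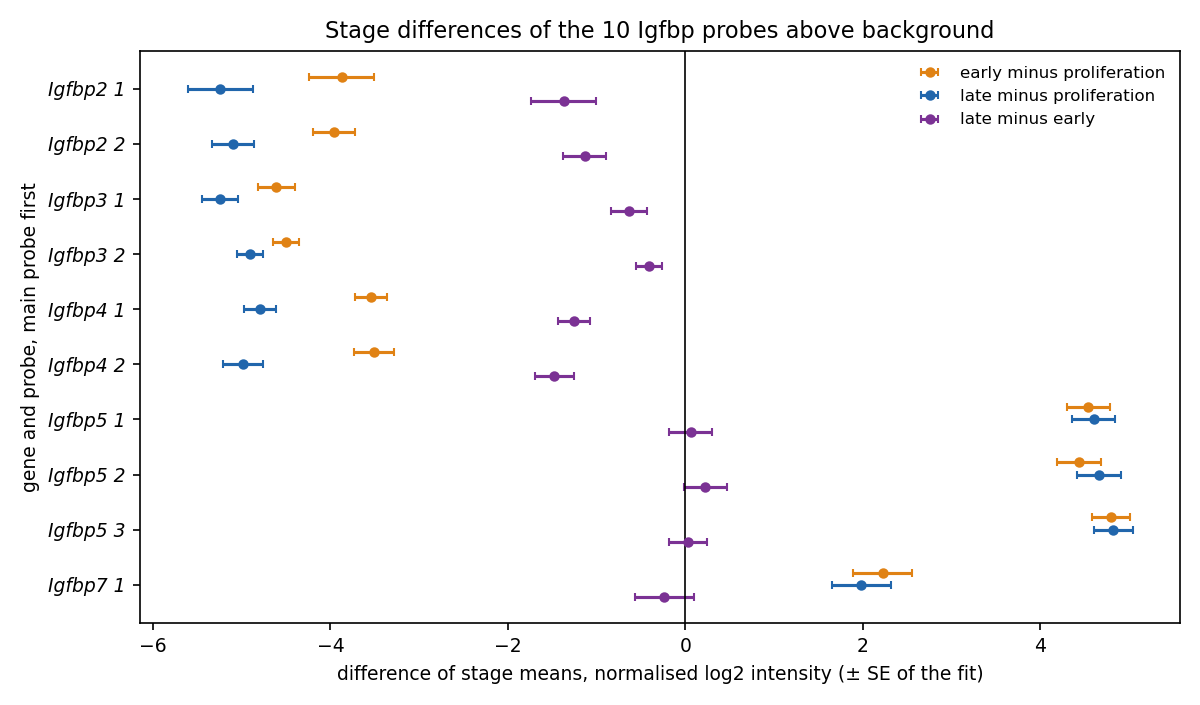
Difference of stage means in normalised log2 intensity (horizontal axis, ± SE of the fit) for the 10 Igfbp probes above background. Probes of 1 gene lie within 0.36 of each other, and the late minus early differences of Igfbp5 lie between 0.03 and 0.23.

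The replicates of a stage spread unevenly. The within-stage SD of Igfbp2 in late differentiation was 0.99 on the log2 scale, that of Igfbp7 0.76 and that of Igfbp3 0.48, where the median gene had 0.14. In proliferation, Igfbp5 (0.53) and Igfbp4 (0.41) were the most variable members, against a median of 0.12 over all genes. The same arrays stood out in different probes of a gene, which read the same RNA sample on each array. Late array 2 was the highest late array in both Igfbp2 probes, at 7.42 and 5.88, and also in the main probes of Igfbp3 (6.94) and Igfbp4 (6.95). Proliferation array 1 was the highest in all 3 Igfbp5 probes, at 9.05, 8.84 and 8.44. Proliferation array 3 was the lowest in both Igfbp4 probes, at 11.12 and 10.39, and the highest in both Igfbp3 probes, at 11.92 and 10.47. Igfbp7 was highest on array 1 of each stage, by 0.34 in proliferation, 0.46 in early and 0.58 in late differentiation over the stage mean. In early differentiation Igfbp2 and Igfbp3 were tight, with SDs of 0.04 and 0.06.

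The genes beside the members did not share 1 direction. Igfbp2 and Igfbp5 lie next to each other in the RefSeq order on GRCm38.p6, on the plus and the minus strand of chromosome 1, and differed by -5.24 and 4.60 on the log2 scale between late differentiation and proliferation. Tns1, the tensin gene near Igfbp5, had a log2 fold change of 0.16 ± 0.15 in late and 0.04 ± 0.15 in early differentiation and was not called (adjusted p = 0.414 and 0.827, limma). Here and below, calls needed both an adjusted p under 0.05 and a 1.5-fold change, and the fold change is against proliferation unless another stage is named. Igfbp3 lies between Igfbp1, which was not above background, and the tensin gene Tns3. Tns3 rose by 1.34 ± 0.15 in late and 1.22 ± 0.15 in early differentiation (adjusted p = 2.53e-05 and 5.76e-05), opposite in sign to Igfbp3. Igfbp4 lies beside Top2a, which encodes a topoisomerase of dividing cells and fell by 4.25 ± 0.17 in late and fell by 3.95 ± 0.17 in early differentiation (adjusted p = 1.48e-08 and 3.45e-08). The tensin gene on its other side, Tns4, was not above the filter. Igfbp7 lies near Noa1 and Adgrl3, which fell, with -0.88 ± 0.11 and -0.80 ± 0.16, in late differentiation (adjusted p = 4.40e-05 and 0.00161). Their values in early differentiation, -0.54 and -0.35, were not called. Adcy1 near Igfbp3 (-0.56 and -0.44 in late and early differentiation) and Tns2, Spryd3 and Csad near Igfbp6 (-0.09 to 0.45 in late and -0.35 to 0.14 in early differentiation) were not called in either stage. Ankar, Tnp1, Gjd3, Ccr7 and Tecrl did not pass the filter.

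The genes most like each member over the 9 arrays were found by the root mean square (RMS) difference of log2 intensities after each gene was centred on its mean. This is a description over 3 stages of 3 arrays, and the values follow the large stage differences. The nearest genes to Igfbp2 were Igfbp4 (RMS 0.46) and Igfbp3 (0.52), followed by the angiopoietin gene Angpt2 (0.54) and the cyclin D1 gene Ccnd1 (0.59). Igfbp3 was nearest to Angpt2 (0.30), the tenascin C gene Tnc (0.36), Ccnd1 (0.37) and Cenpa (0.41), which encodes a centromere histone. Igfbp4 was nearest to Angpt2 and the protein kinase C gene Prkcb (0.41 each), Plvap and the condensin gene Ncaph (0.42 each). For Igfbp5 the nearest genes were Nrbp2, the neurotensin receptor gene Ntsr2 (0.32 each), Psd2 (0.33) and the ectonucleotidase gene Entpd2 (0.37). For Igfbp7 they were the immediate early gene Fos and Morn5 (0.27 each), the protein kinase C gene Prkca (0.28) and Cfap126, a cilium gene (0.30). Between Igfbp2 and Igfbp5 the RMS difference was 4.39.

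The rest of the IGF system was read from 6 lists, of ligands and receptors, other proteins with an IGFBP domain, proteases with their inhibitors and partners, signalling, FOXO target genes and IGF2 mRNA-binding proteins. Of 86 listed genes, 77 were on the array and 55 were tested. In late differentiation 12 rose and 6 fell against proliferation, and in early differentiation 12 rose and 9 fell. That is 18 and 21 of 55 called, where 33.7% and 31.8% of all genes were called. The members are not in these lists.

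No ligand was measured above the filter. The 2 probes for Igf1 and the 1 for Igf2 read 77.7 to 89.9 units on every array, at the background, and no probe passed detection on more than 2 arrays. Igfbp1 read 74.0 to 83.6 units and was detected on no array. At this signal, low levels of these transcripts were not detectable. Of the receptor genes, Igf1r, Insr and Igf2r passed the filter, and Insrr, which encodes a relative of the insulin receptor, was detected on no array. Igf1r, the receptor that carries IGF signals, had normalised log2 intensities of 6.55 to 6.77 in late differentiation, against 7.05 to 7.06 in proliferation. That gave -0.38 ± 0.10 in late differentiation (adjusted p = 0.00716), under 1.5-fold and not called, and -0.18 ± 0.10 in early differentiation (adjusted p = 0.142). The other 2 probes of Igf1r gave -0.78 and -0.50 in late and -0.90 and -0.43 in early differentiation. The first of them passed both thresholds in each stage (adjusted p = 0.000194 and 7.43e-05, limma, over all kept probes). The second was under 1.5-fold in both (adjusted p = 0.00155 and 0.00402), so that the call depended on the probe. Insr, the insulin receptor gene, was at 0.04 ± 0.15 and 0.08 ± 0.15 (adjusted p = 0.849 and 0.679). Igf2r, whose product takes up IGF2 for breakdown in lysosomes, was called. It lay at 6.09 to 6.31 in late and 6.20 to 6.35 in early differentiation, against 7.13 to 7.49 in proliferation. It fell by 1.13 ± 0.12 in late and fell by 1.11 ± 0.12 in early differentiation (adjusted p = 2.04e-05 and 2.63e-05).

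Among the other proteins with an IGFBP domain, 7 genes were tested. In late differentiation 3 rose and 1 fell, and in early differentiation 2 rose and 2 fell, which is 4 of 7 called in each, where 33.7% and 31.8% of all genes were. Igfbpl1, a relative of the IGFBPs known from young neurons, lay at 8.32 to 9.06 in late and 8.16 to 8.42 in early differentiation, against 4.69 to 4.96 in proliferation. It rose by 3.89 ± 0.18 in late and 3.40 ± 0.18 in early differentiation (adjusted p = 3.66e-08 and 1.08e-07). The other 2 probes of Igfbpl1 gave 4.05 and 1.58 in late and 3.22 and 1.08 in early differentiation. Ccn1, which encodes a matrix protein of the CCN family, rose by 1.40 ± 0.27 and 1.22 ± 0.27 (adjusted p = 0.0014 and 0.00335). Its relative Ccn2 fell by 1.56 ± 0.34 in early differentiation (adjusted p = 0.00261) and was not called in late differentiation (-0.68 ± 0.34, adjusted p = 0.113), where it was called without late array 2 (-1.11). Ccn5 was not above background on any proliferation array and was at least 2.90-fold higher in late differentiation (adjusted p = 0.00633). Its late arrays read 5.04, 7.32 and 5.61, and without late array 2 the fitted log2 fold change was 1.13, against 1.77 with it. The call was lost with the deposited value table (1.47, adjusted p = 0.128). Htra1, whose product is a protease that cuts IGFBP5, fell by 0.93 ± 0.18 in late differentiation (adjusted p = 0.00123), with -0.38 ± 0.18 in early differentiation (adjusted p = 0.0998), where it was called without proliferation array 2 (-0.60). Crim1, which encodes a membrane protein with an IGFBP domain, fell by 0.74 ± 0.20 in early differentiation (adjusted p = 0.0108), under 1.5-fold with an offset of 50 (-0.46). Its late value, 0.04 ± 0.20, was not called (adjusted p = 0.878, limma). The second probe of Crim1 gave -1.17 in early and -0.47 in late differentiation.

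Of 11 tested genes for proteases, their inhibitors and partners, 1 rose and 2 fell in late differentiation, and 2 rose and 3 fell in early differentiation. That is 3 and 5 of 11 called, near the 33.7% and 31.8% of all genes. Adam12, which encodes a protease that cuts IGFBP3 and IGFBP5, was not above background on any late array and was detected on 1 of 3 early arrays, against 8.06 to 8.44 on the proliferation arrays. It was at least 14.2-fold lower in late differentiation (adjusted p = 3.76e-09) and fell by 3.89 ± 0.12 in early differentiation (adjusted p = 5.49e-09). Stc1, which encodes a stanniocalcin, an inhibitor of PAPP-A, fell by 3.07 ± 0.16 in late differentiation and fell by 2.64 ± 0.16 in early differentiation (adjusted p = 1.14e-07 and 3.95e-07). Its relative Stc2 fell by 0.64 ± 0.14 in early differentiation (adjusted p = 0.00244), with -0.54 ± 0.14 in late differentiation, under 1.5-fold. The PAPP-A gene Pappa was detected on 1 array at most. Plat, the gene of tissue plasminogen activator, rose by 0.98 ± 0.10 and 1.05 ± 0.10 (adjusted p = 1.33e-05 and 9.21e-06). Its second probe gave 0.42 and 0.32, under 1.5-fold. Mmp2, which encodes a matrix metalloproteinase, rose by 1.60 ± 0.55 in early differentiation (adjusted p = 0.0303). Its late value, 1.28 ± 0.55, was not called (adjusted p = 0.0705), but was called without proliferation array 2 (1.73) or late array 3 (1.74). The early call of Mmp2 was lost without proliferation array 1 or 3 or without early array 1 or 2, with log2 fold changes of 1.15 to 1.67. It was also lost without normalisation between arrays (1.10), with an offset of 50 (1.16), with background subtraction (1.97), with the deposited value table (2.06) and with no filter on dim probes (1.60), at adjusted p = 0.0549 to 0.103. The early call was kept with replicate number as a block. In this comparison same-numbered arrays deviated together (correlations 0.239, 0.204 and 0.308), a pairing that the unblocked fits leave out. In order of replicate number, Mmp2 read 5.66, 6.74 and 5.05 in proliferation and 7.28, 8.34 and 6.63 in early differentiation. Over all 19 alternatives its early adjusted p ran from 8.21e-07 to 0.124 (limma).

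Of 21 tested genes of insulin and IGF signalling, 1 rose and 1 fell in each differentiation stage, with a median log2 fold change of -0.14 in late and -0.01 in early differentiation, against medians of 0.01 and 0.00 over all genes. That is 2 of 21 called in each stage, where 33.7% and 31.8% of all genes were. The gene that fell was Eif4ebp1, whose product restrains translation until mTOR phosphorylates it, with -0.92 ± 0.15 in late and -0.96 ± 0.15 in early differentiation (adjusted p = 0.000372 and 0.000324). The gene that rose was Foxo1, which encodes a transcription factor that IGF signalling keeps out of the nucleus, by 1.01 ± 0.14 and 0.83 ± 0.14 (adjusted p = 0.000136 and 0.00061). The second probe of Foxo1 gave 0.66 and 0.62 and missed the threshold (adjusted p = 0.0514 and 0.0683, over all kept probes). Calls in this list depended on the probe for other genes as well. Other probes passed both thresholds in late and early differentiation for Mtor (-0.91 and -0.74), Gsk3b (-0.83 and -0.77) and Pik3r3 (0.87 and 0.76), and in early differentiation for Tsc2 (-0.78), whose main probes were not called. Of 12 tested FOXO target genes, 7 rose and 1 fell in each stage, with medians of 0.76 in late and 0.69 in early differentiation. That is 8 of 12 called in each stage, beside the same 33.7% and 31.8% of all genes. Txnip, which encodes an inhibitor of thioredoxin and glucose uptake, lay at 9.18 to 9.20 in late and 9.26 to 9.48 in early differentiation, against 4.87 to 6.35 in proliferation. It rose by 3.50 ± 0.28 and 3.68 ± 0.28 (adjusted p = 2.51e-06 and 1.93e-06). Pik3ip1, whose product inhibits PI3-kinase, rose by 2.37 ± 0.12 and 2.46 ± 0.12, Sesn1, a sestrin gene, by 1.99 ± 0.13 and 1.66 ± 0.13, and Fbxo32, a ubiquitin ligase gene, by 1.59 ± 0.20 and 1.46 ± 0.20 in late and early differentiation (largest adjusted p = 0.000149). The other 2 Sesn1 probes gave 1.72 and 0.73 in late and 1.39 and 0.55 in early differentiation. The gene that fell in both was Gadd45a, a DNA damage gene, with -0.74 and -1.09. Many of these genes answer to other signals as well. Of the IGF2 mRNA-binding protein genes 1 was tested. Igf2bp3 was called lower in early differentiation, at -0.64 ± 0.23 (adjusted p = 0.0404), while its other 2 probes gave 0.44 and -0.20. Without proliferation array 3 its value was 0.42, from another probe, and the call was also lost without late array 1 or any 1 early array (-0.72 to -0.58). The call was lost too with cyclic loess (-0.67), an offset of 50 (-0.29), background subtraction (-1.76), the deposited value table (-0.37), no filter on dim probes (-0.64) and the mean of its kept probes (-0.13).

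**Figure D4:**
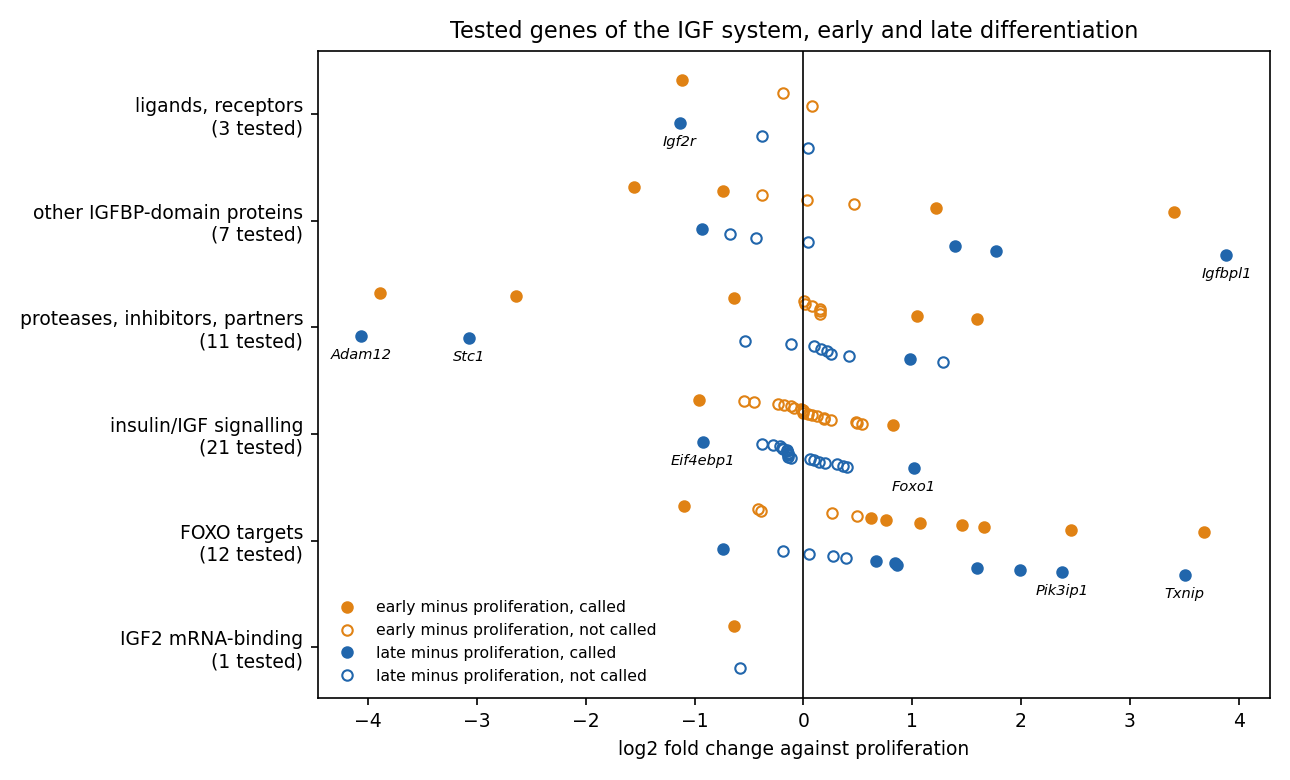
Log2 fold change against proliferation (horizontal axis) of the 55 tested IGF system genes in early and late differentiation, by list, with filled points for called genes. FOXO target genes lie mostly to the right of 0, with 7 of 12 called higher in each stage, and 19 of 21 signalling genes are open points.

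Between late and early differentiation 1 of the 55 genes was called, where 3.89% of all genes were. Crim1 was higher in late differentiation by 0.78 ± 0.20 (adjusted p = 0.0461, limma), with 5.89 to 6.34 in late and 5.21 to 5.42 in early differentiation. Its late level was near that of proliferation, at 0.04 ± 0.20 (adjusted p = 0.878, limma). The call between late and early differentiation was lost without proliferation array 1 and without any 1 of the late or early arrays, at 0.68 to 0.90. Without late array 1, Ccn5 was called (1.78), and without late array 2, Igfbpl1 was called (0.70). With all arrays, the main probe of Igfbpl1 gave 0.48 (adjusted p = 0.123, limma) and was not called. Of its other probes, 1 passed both thresholds, at 0.82 (adjusted p = 0.0314, over all kept probes), and the third gave 0.50 and did not (adjusted p = 0.153). With replicate number as a block, 3 genes were called higher in late differentiation, Crim1 together with Ccn2 (0.88, adjusted p = 0.0152, limma) and Ccn5 (1.30, adjusted p = 0.0363, limma).

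Markers of several cell types moved along with the members. The summed signals in this paragraph are intensities above background that were not normalised between arrays. The mean intensity of the arrays was highest in proliferation, and the sums carry that difference. The fold changes are from the normalised values. The 3 tested genes of 6 dividing-cell markers (Top2a, Cdk1 and Aurkb) had a summed signal above background of 1268 to 1767 units in proliferation, 23.8 to 36.4 units in early and 6.90 to 35.4 units in late differentiation, and all 3 fell in both stages. The astrocyte markers summed to 13583 to 18343, 20393 to 26156 and 23432 to 24342 units in proliferation, early and late differentiation, with 7 of 8 tested. Slc1a3 and Gja1 were the brightest, at up to 12405 and 11357 units. By gene, 5 of the 7 rose in late and 4 in early differentiation and none fell, where 33.7% and 31.8% of all genes were called. Gfap rose by 4.35 and 5.59 and Aqp4 by 3.53 and 4.14 in late and early differentiation. Aldh1l1 was not called (-0.32 and 0.10). The oligodendrocyte lineage markers summed to 10689 to 13363 units in proliferation, 3672 to 4762 in early and 1869 to 3221 in late differentiation, with 5 of 9 tested. Among the 5, the progenitor factors Olig1 and Olig2 fell, with -1.87 and -1.30 in late and -0.96 and -1.14 in early differentiation, as did Olig1 between late and early differentiation (-0.91, adjusted p = 0.0146). Pdgfra rose in both stages (0.72 in late and 1.23 in early differentiation) and Sox10 in early differentiation (0.71), and Cspg4 was not called. The neuron markers summed to 2479 to 3200 units in proliferation, 1593 to 2146 in early and 1630 to 1981 in late differentiation. Map2 carried most of this sum, with up to 3265 units, while Dcx, Tubb3, Rbfox3 and Syt1 read at most 123 units. The median log2 fold change of the 5 tested genes was 0.30 in late and 0.17 in early differentiation, and none was called lower. Of the 5, 1 was detected on all 3 arrays in proliferation, 2 in early and 4 in late differentiation. Of 5 tested neuron markers Rbfox3 was the 1 gene called, higher by 1.22 in early differentiation. The ependymal markers summed to 141 to 185, 972 to 1351 and 1360 to 1923 units, with 5 of 6 tested and all 5 higher in both stages. Of 12 endothelial and mural markers, 6 were tested. Pecam1, Cdh5, Cldn5, Tek, Pdgfrb and Rgs5 were not above the filter, and Acta2 was the 1 gene called, higher by 2.20 in late and 2.70 in early differentiation. Their sums were 87.7 to 99.5 units in proliferation, 191 to 380 in early and 150 to 301 in late differentiation. Of 8 fibroblast and 7 microglia markers 1 each passed the filter, Pdgfra and Csf1r. The part of any cell type in the Igfbp levels was not tested. Of the 6 NSC/NPC markers, 5 were tested, and Nes, Sox2, Fabp7 and Vim were detected on every array, but their levels differed between stages in both directions. Fabp7 fell by 1.72 in late and fell by 0.90 in early differentiation and was lower in late than in early differentiation (-0.82, adjusted p = 0.00513). Nes fell by 0.66 in early differentiation and was at -0.09 in late differentiation. Sox2 (0.79 and 0.69), Vim (1.12 and 0.85) and Prom1 (2.40 and 2.94) rose in late and early differentiation.

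Across the arrays, 18310 to 19919 probes were detected, with mean intensities of 157 to 228 units, higher in proliferation (218 to 228) than in early (157 to 171) and late differentiation (173 to 180). Without normalisation between arrays the members kept their directions against proliferation, but the early differences moved by over 1.5-fold, to -4.61 for Igfbp2, -5.31 for Igfbp3, -4.27 for Igfbp4, 3.88 for Igfbp5 and 1.56 for Igfbp7, as did the late difference of Igfbp4, to -5.39. In that setting the median of all genes was -0.31 in late and -0.41 in early differentiation. The IGF system then split into 8 higher and 18 lower in late and 6 higher and 19 lower in early differentiation, in place of 12 and 6 and of 12 and 9. Of all 11009 genes, 1026 were then called higher and 3754 lower in late differentiation, 43.4% together. In early differentiation 804 were called higher and 4305 lower, 46.4% together. The calls of Plat (0.39 and 0.30) and, in early differentiation, of Foxo1 (0.31) and Mmp2 (1.10) were lost. Igf1r was called lower in both stages (-0.87 and -0.79), Ccn2 (-1.17) and Igf2bp3 (-0.79) in late differentiation and Htra1 (-1.02) in early differentiation.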

How the data were processed

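The deposited non-normalized table held, per the labels and the file header, intensity values (mean bead signal) and detection p-values of all probes on the 9 arrays, which the authors exported from GenomeStudio. The intensities still held the background and were not normalised between arrays, although the methods describe an export after background subtraction. The deposited value table, with background-subtracted and scaled intensity, was used as an alternative only. Gene symbols came from the platform annotation, with 34885 probes on 1 symbol, 18 on several and 10378 on none.

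In limma 3.58.1 (R 4.3.3), intensities were corrected with a normal-exponential model (background inferred through the detection p-values, offset 16), which compresses the differences of dim probes, quantile normalised and put on the log2 scale. Of the probes, 20935 passed the filter (detection p under 0.05 on at least 3 arrays), 17481 of them with 1 symbol, and each of 11009 genes was represented by its kept probe of highest mean. All 9 arrays entered 1 model with a coefficient for each stage (lmFit, eBayes), and p-values were Benjamini-Hochberg adjusted over all genes of a comparison. A gene not detected on any array of a stage has a lower bound, computed with its values there raised to the lowest detected signal of each array. On simulated data for late differentiation against proliferation, with 200 of 11009 genes changed, 89% of the genes changed by 1 and 98% of those changed by 2 on the log2 scale were called. The simulated noise was independent between arrays, with no shared effect of replicate number or BeadChip, so that these shares may differ from those in the data. No 2 arrays were identical. The number of arrays limits the precision.

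The members, gene lists and tests were chosen with earlier results of these data known. Named were all members, Igf1, Igf2, Igf1r, Insr, Igf2r, Igfbp1 and Igfbpl1, up to 4 called genes of a list with the largest changes per comparison, the 2 nearest protein-coding genes on each side of a member, and the 4 genes most like each. Stc2, Gadd45a, Pappa, Insrr, Mtor, Gsk3b, Pik3r3, Tsc2 and the marker genes were named in addition, after their values were seen. Rpl37a, Pkd1l1, Soat2 and Polr2b, which are neighbours of members, were not analysed here.

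Same-numbered arrays deviated together between early differentiation and proliferation (correlations 0.239, 0.204 and 0.308) and between late and early differentiation (0.318, 0.172 and 0.386), above the minimum of 0.1 set for pairing. The minimum was not met by late differentiation and proliferation (0.0642, 0.0793 and 0.142). The pairing comes from the replicate numbers of the labels. The block was an alternative, beside other normalisations, offsets, filters, probe rules and sample choices.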

Additional observations from a re-analysis of the deposited data

Results flagged for a closer look

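The difference between the effects of late and early differentiation, tested as a contrast of the fit, passed the threshold for 1 of the 55 tested IGF system genes. Of all genes, 3.89% were called in this comparison. Crim1 was higher in late than in early differentiation by 0.78 on the log2 scale (SE 0.20, adjusted p = 0.0461, limma). In late differentiation its 3 arrays read 5.89, 6.34 and 6.11, against 5.42, 5.21 and 5.35 in early differentiation. The second probe of Crim1 gave 0.70 (adjusted p = 0.0364, over all kept probes). The call was lost in 12 of 19 alternatives, with adjusted p-values between 0.00703 and 0.140 over all 19. The late and early arrays lay on different BeadChips, and this cannot be told apart from stage.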

How the results depend on the processing

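Over the 19 alternatives, each of the 95 values for the members in late and in early differentiation against proliferation kept its direction, and 92 of 95 did so between late and early differentiation. Igfbp7 turned to 0.19 in that comparison without late array 3, and Igfbp5, at 0.06 as reported, changed sign in 2 alternatives. The differences spanned -5.83 to -4.71 for Igfbp2, -5.82 to -4.76 for Igfbp3, -5.39 to -4.42 for Igfbp4, 4.10 to 4.91 for Igfbp5 and 1.49 to 2.41 for Igfbp7 in late differentiation, which are differences within 1 BeadChip. Between late and early differentiation, the count of called IGF system genes, 1 as reported, was 0 with cyclic loess, with an offset of 50, with the deposited value table and with no filter on dim probes. Background subtraction also called 1 gene there, Adam12 (-2.01), in place of Crim1. Leaving out 1 array gave 18 to 24 called genes in late and 18 to 22 in early differentiation, against proliferation, and 0 to 1 between late and early. With replicate number as a block the counts were 20, 21 and 3, and Mmp2 (1.28, adjusted p = 3.51e-06) and Ccn2 (-0.68, adjusted p = 0.00911) were also called in late differentiation. An offset of 50 left 14 called genes in early differentiation, in place of 21, and lost Foxo1 (0.58) and Crim1 (-0.46) there. Leaving out 1 array gave -0.84 to 0.42 for Igf2bp3 in early differentiation, with the sign turned without proliferation array 3, where a different probe was its main one. The cause was not tested. Of all genes, 428 were called between late and early differentiation, 221 with an offset of 50, 235 with background subtraction and 250 without early array 2.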
